A study of Mus musculus with 3 samples.

Results

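The nuclei described here are the RNA-rich nuclei of acinar type in mouse lacrimal gland, the gland that makes the watery part of the tear. They were selected on their own read-out. A barcode was a member when it held more than 8000 unique molecular identifiers (UMIs, each standing for 1 captured RNA molecule), 300 or more detected genes and no more than 5% of UMIs from mitochondrial genes. Chrm3, the gene of the M3 muscarinic receptor, had to make up at least 0.2% of its UMIs, Car6 less than 0.3%, and the secretory genes Mucl2, Scgb2b2 and Scgb1b2 together less than 30%. Marker genes of vessel, connective tissue, immune and muscle-like cells (Ptprb, Lama2, Skap1, F13a1, Mrc1, Trp63 and Myh11) had to stay at or below 0.1% together, and marker genes of duct cells (Krt7, Krt19, Krt23, Elf5, Ehf and Wfdc2) below 0.1%. In all, 1928 nuclei of 29599 deposited barcodes met these terms. The levels of these 18 genes and the depth of the nuclei are therefore descriptions of the choice, not findings.

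Acinar cells release tear proteins, water and salts when nerves act on their surface receptors. Acetylcholine binds M3 receptors, which couple through Gq and phospholipase C to calcium release, and noradrenaline acts through alpha-1 receptors on much the same route. The calcium signal drives fusion of secretory granules and opens ion channels. A large endoplasmic reticulum (ER) supplies the proteins, and exocrine cells are known to keep a daily rhythm set by a transcriptional clock.

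The study profiled single nuclei with droplet sequencing (10x Genomics 3' v3 chemistry) in 3 libraries, 1 per group. The first is labelled as healthy, or normal control, and is called control. The second came from a dry eye model made with scopolamine, which blocks muscarinic receptors, together with dry stress, and is called scopolamine. The third came from the same model given tamsulosin, a blocker of alpha-1 adrenergic receptors, and is called tamsulosin, so scopolamine and dry stress are common to this library and the one before it. Strain, age, sex, doses, times and the number of animals are not given in the labels, and the protocol text mentions a sort of fluorescent nuclei that may or may not have been applied here. With 1 library per group, no difference has a replicate check and no p-value is given. All intervals below are 95% intervals that cover counting error only. A difference between groups cannot be told apart from one between animals, or from one in how a library was made.

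Control held 722 members, scopolamine 565 and tamsulosin 641. Of the nuclei that passed the gene and mitochondrial limits (7194, 10006 and 12020), members were 10.0% in control (exact Clopper-Pearson interval 9.35 to 10.8), 5.65% in scopolamine (5.2 to 6.12) and 5.33% in tamsulosin (4.94 to 5.75). Their share of all UMIs in the library was larger, at 40.7%, 25.6% and 16.8%. Nuclei above 8000 UMIs that were not members differed between libraries, since the Chrm3 term alone or with others removed 36 such nuclei in control, 189 in scopolamine and 414 in tamsulosin, and the term on the 3 secretory genes removed 5, 174 and 323. The share of members therefore depends on these limits. The duct term was the only one missed by 98, 80 and 188 deep nuclei.

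Members held a median of 13346.5 UMIs in control, 12026 in scopolamine and 11664 in tamsulosin, and the deepest nuclei held 262826, 155347 and 144993. Members of the 3 libraries held medians of 4056.5, 3634 and 3503 genes. Nuclei just inside the UMI limit (8001 to 8400 UMIs: 48, 37 and 50 nuclei) and just outside it (7600 to 8000 UMIs, all other terms met: 37, 51 and 75 nuclei) had median Chrm3 shares of 0.4% and 0.378% in control, 0.382% and 0.392% in scopolamine, and 0.369% and 0.365% in tamsulosin. Chrm3 was itself a term of the rule on both sides. Barcode sequences shared between libraries numbered 22 to 35 in each pair, and none of them was a member in both. A doublet caller marked no barcode in any library and so had not worked here. The results were therefore repeated without the highest doublet scores, which included 29, 27 and 98 members.

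**Figure D1:**
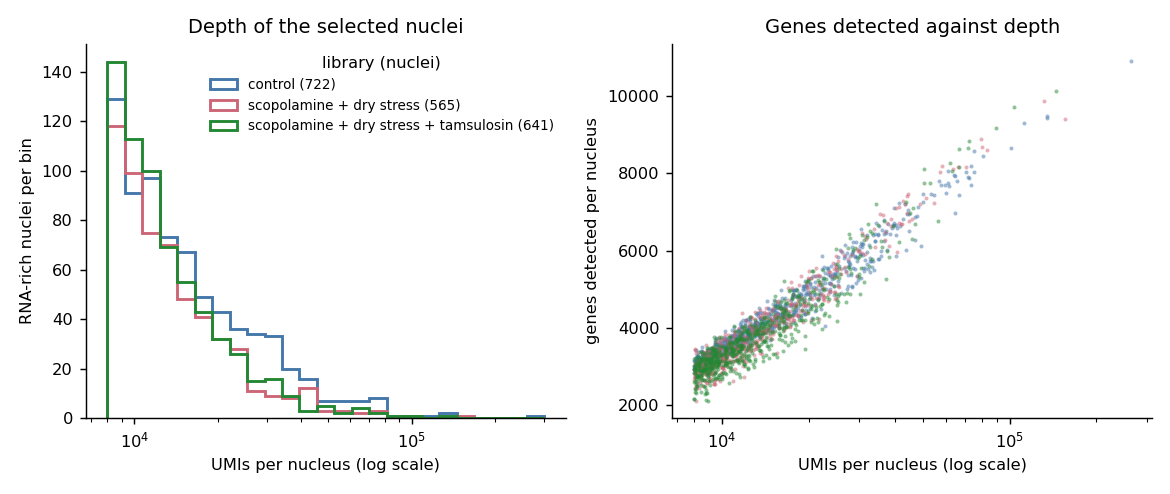
UMIs per member nucleus in each library (left, log axis, number of nuclei) and detected genes against UMIs per nucleus (right, log axis for UMIs). Medians were 13346.5, 12026 and 11664 UMIs, with 296 of 722, 282 of 565 and 339 of 641 members at 8000 to 12000 UMIs and 28, 12 and 13 above 50000 UMIs.

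The acinar label was compared with 18 acinar markers, of which Chrm3 was a term of the rule. All 18 were above 20 CPM (the UMIs of a gene summed over the nuclei of a library and scaled to a total of 1000000) in each library. In the macrophage-type nuclei described below, 16, 14 and 14 of them also reached 20 CPM, so this count by itself does not set members apart. The 18 markers include Aqp5, the water channel of the apical membrane (55.7 CPM in control, 68.6 in scopolamine and 65.5 in tamsulosin), Bhlha15, the transcription factor MIST1 of secretory cells (47.9 CPM in control, 52.3 in scopolamine and 56.6 in tamsulosin), and Xbp1, a factor that expands the ER (524 CPM in control, 358 in scopolamine and 369 in tamsulosin). Of the 3 genes given as marks of these nuclei, Chrm3 was present at similar levels throughout (3837 CPM in control, 4388 in scopolamine and 3914 in tamsulosin), but the other two each belonged to some libraries only. Pnliprp1, pancreatic lipase related protein 1 (ENSMUSG00000042179, chr19:58728887-58744169, plus strand, GRCm38), stood at 1695 CPM in control, 69.2 in scopolamine and 40.4 in tamsulosin. Ptprt, a receptor-type tyrosine phosphatase that also mediates cell adhesion (ENSMUSG00000053141, chr2:161521990-162661147, minus strand), stood at 67.7 CPM in control, 447 in scopolamine and 393 in tamsulosin. Pnliprp1 was thus high in members of the control library and Ptprt in those of the scopolamine and tamsulosin libraries. Nuclei of 2000 to 8000 UMIs showed the same order of libraries, as given with the single nuclei.

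Markers of other cell types were low but not absent. Macrophage markers that the rule had not used summed to 376, 387 and 384 CPM in members, against 7743, 10535 and 7800 CPM in macrophage-type nuclei of the same libraries (41, 77 and 71 nuclei with at least 0.2% F13a1 and Mrc1). The 14 duct markers outside the rule summed to 517 CPM in control, 985 in scopolamine and 1056 in tamsulosin, of which Pigr, the receptor that carries immunoglobulin A across epithelium, made up 188, 549.96 and 520.0 CPM. Fibroblast markers summed to 45.7, 113 and 66.8 CPM, and B and plasma cell markers to 51.5, 119 and 160 CPM. Of 14 macrophage markers 3, 5 and 5 reached 20 CPM and 0 were without a UMI, and of 12 B and plasma cell markers 1, 1 and 3 reached it. Their part in the results was not tested. Endothelial markers summed to 1774, 1932 and 1429 CPM, nearly all of it Mecom, with Flt1 at 13.3, 21.8 and 53.5 CPM. Red cell markers summed to 20.4, 4.22 and 43.4 CPM. Xist was at 1491, 1597 and 1569 CPM while the Y-linked genes Kdm5d and Eif2s3y had no UMI. Of the other Y-linked genes listed, Ddx3y had 1, 2 and 0 UMIs and Uty 1, 1 and 4 UMIs in members.

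RNA free in the droplets was judged from the macrophage-type nuclei, which should not make acinar transcripts. They held the acinar markers other than Chrm3 at a summed 2382, 3204 and 7155 CPM, against 5216, 5146 and 8044 CPM in members. With Chrm3 the sums were 4776, 4410 and 7691 CPM, against 9054, 9535 and 11957 CPM in members. Chrm3 was thus itself present in these nuclei. The tear proteins Ltf and Pip were among the markers. Ltf, which encodes the iron-binding tear protein lactoferrin, was at 284, 321 and 2014 CPM in macrophage-type nuclei and at 70.7 CPM in control, 151 in scopolamine and 1418 in tamsulosin in members, so its level in members did not exceed that reference in any library. The part of free RNA in the secretory genes was not tested further, and the reference level is given beside the genes it touches.

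ER genes took up a similar part of the RNA at each depth among members. Nuclei were split at 12000, 20000 and 50000 UMIs, which gave 296, 227, 171 and 28 nuclei in control, 282, 181, 90 and 12 in scopolamine, and 339, 196, 93 and 13 in tamsulosin. The 28 ER genes of entry, folding and export summed to 6539 CPM in the shallowest and 6356 CPM in the deepest nuclei of control, to 5433 and 5558 CPM in scopolamine, and to 5585 and 6327 CPM in tamsulosin. Chrm3, whose lowest level the rule sets, ranged from 3593 to 3966 CPM over the 4 ranges in control, from 4039 in the shallowest to 4933 in the deepest nuclei of scopolamine, and from 3815 to 4445 in tamsulosin.

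Mitochondrial and secretory RNA made up less of the deepest nuclei. The 13 mitochondrially encoded genes summed to 1404 CPM at 8000 to 12000 UMIs and to 658 CPM above 50000 UMIs in control. The same sums were 1309 and 709 CPM in scopolamine and 4683 and 682 CPM in tamsulosin. The 3 libraries were thus within 658 to 709 CPM in their deepest nuclei, while in the shallowest tamsulosin stood apart from the other libraries. The 24 tear and secretory proteins went from 26101 to 17960 CPM in control, from 73096 to 26295 CPM in scopolamine and from 78099 to 30257 CPM in tamsulosin. Thinned to 8000 UMIs each, the deepest nuclei also held more genes, with medians of 3263.5 against 3078.5 in control, 3253.5 against 2842 in scopolamine and 3343 against 2845 in tamsulosin. Nuclei above 50000 UMIs were few, and held 16.4%, 10.6% and 9.73% of member UMIs.

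**Figure D2:**
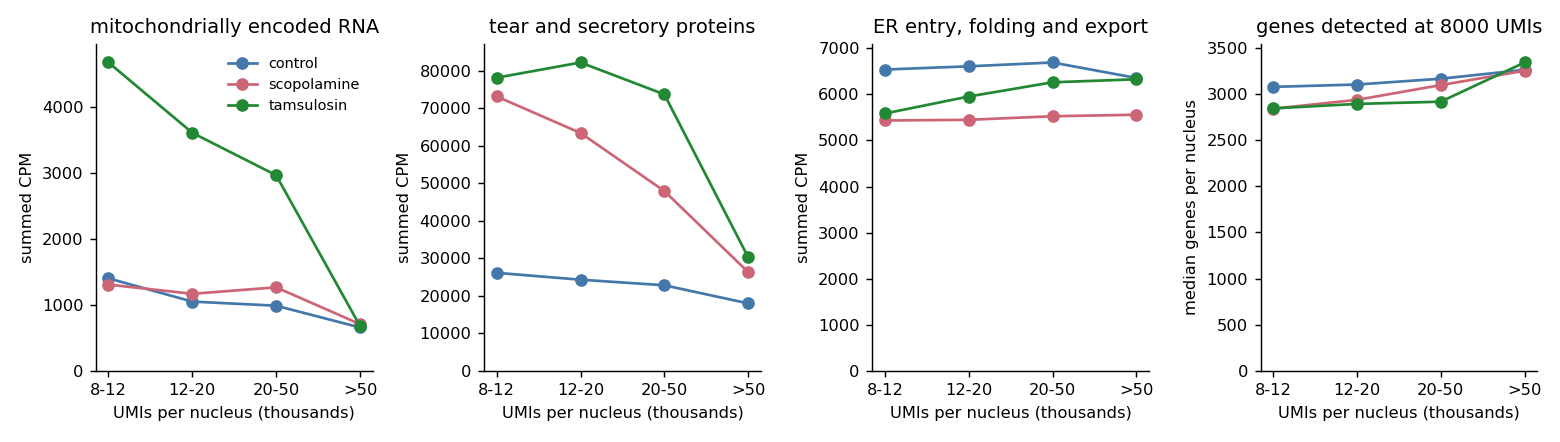
Summed CPM of mitochondrial RNA, tear and secretory proteins and ER genes, and median genes at 8000 UMIs, over 4 ranges of UMIs per member nucleus in each library. Mitochondrial RNA ended at 658 to 709 CPM above 50000 UMIs in all 3 libraries, while the ER sums stayed between 5433 and 6692 CPM.

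Set against shallower nuclei of the same library, members held less RNA of mitochondria, of ribosomal proteins and of some secreted proteins and, in control and scopolamine, hardly any gene in excess. The comparison used nuclei of 2000 to 8000 UMIs that met every other term (1858, 1540 and 2388 nuclei, called nuclei of ordinary depth). Genes whose mean reached 20 CPM were tested. A gene was counted as higher or lower when its log2 ratio, with 5 CPM added to each level and the median of tested genes subtracted, passed 1.5-fold. Folds are given on the CPM themselves, so a gene can pass at a fold below 1.5 where the median gene lay lower. In control, 0 of 6048 genes were higher (0%) and 167 lower (2.76%). In scopolamine 2 of 5837 were higher (0.0343%) and 166 lower (2.84%). Of these scopolamine calls 1.19% were higher, which became 11.7% when all nuclei were thinned to 2000 UMIs. In tamsulosin, 178 of 5817 were higher (3.06%) and 577 lower (9.92%). Lower in each of the 3 libraries were 86 genes, 9 of them mitochondrial, 8 for ribosomal proteins and 3 that the rule had used (Car6, Scgb1b2 and Scgb2b2).

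Every mitochondrially encoded gene tested was lower in members, 10 of 10 in control, 9 of 9 in scopolamine and 12 of 12 in tamsulosin, with median relative log2 ratios of -1.22, -0.81 and -1.14 where all tested genes have a median of 0. Of the tear and secretory proteins, 8 of 17, 4 of 16 and 5 of 17 tested were lower. Ltf was lower by 3.33-fold (95% interval 3.07 to 3.61), 3.53-fold (95% interval 3.31 to 3.76) and 2.84-fold (95% interval 2.78 to 2.89), and Wfdc18, a small secreted protein of the whey acidic family, by 4.19-, 3.595- and 2.91-fold. Dmbt1, a secreted scavenger receptor protein of mucosal surfaces, was lower by 2.48-, 2.92- and 2.82-fold. F5 (coagulation factor V), Fut9 (a fucosyltransferase), Cyp2f2 (a cytochrome P450), Sema3d (a secreted semaphorin) and Acsm1 (a medium-chain acyl-CoA synthetase) completed the 8 lowest genes, at 2.27- to 3.43-fold. Fut9 and Acsm1 belong to a set of 4 genes that splits the members, as given at the end.

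Genes for proteins of the ribosome, a class singled out after its values were seen, were lower as well, 11 of 65 tested in control, 45 of 69 in scopolamine and 78 of 81 in tamsulosin, with median relative log2 ratios of -0.40, -0.65 and -0.99. None was higher. Their sum was 2443 CPM in members and 3207 in nuclei of ordinary depth in control, 2287 and 3653 in scopolamine, and 4054 and 7868 in tamsulosin. Macrophage-type nuclei held 2753, 3969.8 and 10391 CPM.

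The comparison was repeated without nuclei high in that set, left out of members and of nuclei of ordinary depth alike. In tamsulosin this left out 173 of 641 members and 1397 of 2388 nuclei of ordinary depth, so the reference changed as well. In this setting, 31 genes were lower in all 3 libraries. Of these 12 were for ribosomal proteins, 6 were mitochondrial and 3 had been used by the rule, and Ltf, Dmbt1, Cyp2f2 and Wfdc18 were among the others. Fut9 in scopolamine then had a relative log2 ratio of 0.09 in place of -1.39. In tamsulosin the genes counted as higher then numbered 4 in place of 178, or 2.13% of the calls in place of 23.6%.

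The 8 genes with the steadiest excess in members were taken by the lowest of their 3 ratios. Smim31, which encodes a small membrane protein, was at 49.95 CPM in members and 34.7 in nuclei of ordinary depth in control, at 69.5 and 47.3 in scopolamine, and at 47.1 and 21.2 in tamsulosin. Lmx1b, a LIM homeodomain factor, was 1.47-, 1.34- and 1.85-fold higher, and Smo, the transducer of hedgehog signals, 1.398-, 1.34- and 1.49-fold. Tcf7l1 (a TCF factor of the Wnt pathway), Uck2 (uridine-cytidine kinase), Dagla (diacylglycerol lipase alpha), Kcnip3 and Tulp2 were the others. Without nuclei high in the set of 4 genes at either depth, the relative log2 ratios in tamsulosin turned to -0.01 for Lmx1b and -0.05 for Dagla. That of Smim31 was then 0.15 in place of 0.84. The 3 marks of these nuclei showed no common excess over ordinary depth. Pnliprp1 was 1.49-, 1.21- and 1.82-fold higher, Chrm3 was between 1.01-fold lower (control) and 1.101-fold higher (scopolamine), and Ptprt was 1.03-fold lower in control and 1.38- and 1.79-fold higher in scopolamine and tamsulosin.

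Between the scopolamine and control libraries, members differed in lipase genes, clock genes, amino acid response genes and tear peptides. Summed levels of these groups differed in the same direction in nuclei of ordinary depth, so these differences were not particular to members. Control and scopolamine there held clock activators at 615 and 737 CPM and clock repressors at 470 and 217 CPM. Amino acid response genes stood at 910 and 714 CPM, lipid genes at 5458 and 2061 CPM, and tear and secretory proteins at 34136 and 74882.5 CPM. Of 5989 genes tested, 395 were higher in scopolamine (6.6%) and 256 lower (4.27%). The median log2 ratio of tested genes was -0.17 for scopolamine against control and -0.23 for tamsulosin against control, and the calls are relative to it. Tamsulosin against scopolamine gave 221 of 5842 higher (3.78%) and 36 lower (0.616%), and tamsulosin against control 578 of 5986 higher (9.66%) and 336 lower (5.61%). The 3 comparisons share libraries and are not independent of each other. Of the calls between scopolamine and control 60.7% were higher, which became 50.2% with a mean of 100 CPM required and 50.03% when every gene with a UMI was taken. The same shares were 86.0% and, with every gene, 73.8% for tamsulosin against scopolamine, and 63.2%, 52.1% and 47.0% for tamsulosin against control.

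**Figure D3:**
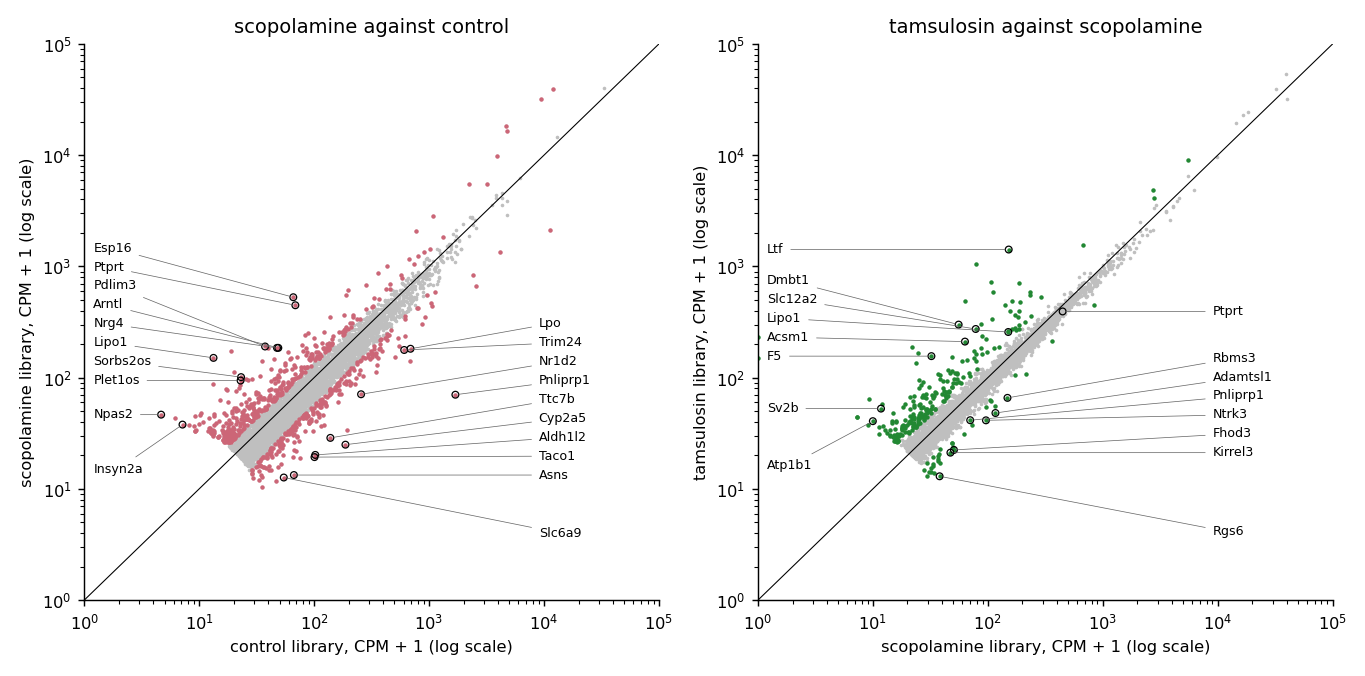
Levels of tested genes in member nuclei as CPM plus 1 on log axes, scopolamine against control (left) and tamsulosin against scopolamine (right). Coloured points passed 1.5-fold relative to the median gene. Pnliprp1 (1695 CPM in control and 69.2 in scopolamine) lies far below the diagonal line at left, and Ltf (151 CPM in scopolamine and 1418 in tamsulosin) far above it at right.

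Receptor genes are set beside all tested genes, of which 6.6% were higher and 4.27% lower in scopolamine than in control. Chrm3, the target of scopolamine in these cells, was used by the rule. Adra1a, the alpha-1A adrenergic receptor that tamsulosin blocks, was at 355 CPM in control, 239 in scopolamine and 186 in tamsulosin, and P2rx4, an ATP-gated channel, at 322 CPM in control, 217 in scopolamine and 184 in tamsulosin. Of 18 receptor genes, 6 reached 20 CPM, 1 of them was higher in scopolamine than in control and none was lower, with a median relative log2 ratio of 0.25. The higher one was Prlr, the prolactin receptor, by 1.49-fold (95% interval 1.41 to 1.57). Adra1a was the 1 receptor lower in tamsulosin than in control, by 1.91-fold (95% interval 1.805 to 2.01). Of all tested genes 5.61% were lower in that comparison.

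Signalling genes downstream were compared between scopolamine and control beside the same shares of all tested genes (6.6% higher and 4.27% lower). The counts are small and are not read as a lack of change. Among 20 genes of G proteins, phospholipase C and protein kinases, 15 were tested and 1 was higher in scopolamine, Adcy2, an adenylyl cyclase (569.9 CPM in control, 836 in scopolamine and 778 in tamsulosin). Between tamsulosin and control 2 of the 15 were higher and 1 lower, beside 9.66% and 5.61% of all tested genes. Gnaq, the Gq subunit that couples M3 receptors, was at 559 CPM in control, 612 in scopolamine and 529 in tamsulosin. None of the 11 tested genes of calcium release and entry passed 1.5-fold in either direction (median 0.07). Itpr2, a calcium release channel of the ER, was at 129 CPM in control, 131 in scopolamine and 138 in tamsulosin.

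Here and below, counts between scopolamine and control stand beside 6.6% higher and 4.27% lower among all tested genes. Among 11 tested genes of ion and water transport, 3 were higher in scopolamine and none lower (median 0.42). Kcnn4, a calcium-activated potassium channel, was at 21.3 CPM in control, 79.3 in scopolamine and 117 in tamsulosin, 3.73-fold (95% interval 3.25 to 4.29) higher in scopolamine. Slc4a4, a sodium bicarbonate cotransporter, was at 103 CPM in control, 149 in scopolamine and 116 in tamsulosin. In regulated exocytosis, 3 of 16 tested genes were higher and 1 lower. Vamp2, a vesicle SNARE, was at 23.8 CPM in control, 50.5 in scopolamine and 46.1 in tamsulosin, and Rims2, a scaffold of vesicle docking sites, at 51.5 CPM in control, 24.1 in scopolamine and 79.4 in tamsulosin, low in scopolamine alone.

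Of the genes of the ER, 1 of 27 tested was higher and 2 lower, with a median of -0.02. These counts lay near the shares of all tested genes (6.6% higher and 4.27% lower) and are not read as a change of the group. The 2 lower ones were Herpud1, which serves ER-associated degradation (342 CPM in control, 157 in scopolamine and 159 in tamsulosin), and Atf6, a sensor of unfolded protein (363 CPM in control, 179 in scopolamine and 191 in tamsulosin). Calr, the chaperone calreticulin, was higher (49.1 CPM in control, 80.8 in scopolamine and 109 in tamsulosin). Hspa5, the main ER chaperone BiP, was at 238 CPM in control, 272 in scopolamine and 299 in tamsulosin.

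The genes of the amino acid response lay mostly lower. This group holds enzymes and transporters that the factor ATF4 induces when amino acids run short. Of 12 tested genes, 6 were lower in scopolamine than in control and 1 higher, with a median relative log2 ratio of -0.69. Asns, which makes asparagine, was at 65.7 CPM in control, 12.3 in scopolamine and 14.03 in tamsulosin, a difference of 5.34-fold (95% interval 4.38 to 6.56). Aldh1l2, a mitochondrial enzyme of folate metabolism, was at 101 CPM in control, 19.2 in scopolamine and 16.4 in tamsulosin, lower by 5.28-fold (95% interval 4.51 to 6.22). Slc6a9, a glycine transporter, was at 53.5 CPM in control, 11.7 in scopolamine and 10.4 in tamsulosin, and Slc7a5, a carrier of large neutral amino acids, at 53.03 CPM in control, 19.3 in scopolamine and 23.2 in tamsulosin. Both dry eye libraries lay at a similar low level for each of these 4 genes. Atf4 itself was at 75.8 CPM in control, 56.9 in scopolamine and 68.6 in tamsulosin. The exception was Nupr1, a small stress-induced chromatin protein, at 216 CPM in control, 362 in scopolamine and 214 in tamsulosin. In macrophage-type nuclei Asns stood at 37.8, 0 and 22.9 CPM, where 3 counts in scopolamine would be 14.4 CPM, and Nupr1 at 25.2, 129 and 142 CPM.

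The clock genes that passed 1.5-fold between scopolamine and control split by role, while other tested clock genes did not pass. Arntl (BMAL1) and its partners Clock and Npas2 bind DNA elements called E-boxes and activate transcription, while the PER, CRY and REV-ERB proteins repress and the PAR bZIP factor TEF passes the rhythm on to other genes. Of 4 tested activators 2 were higher in scopolamine and none lower (median 1.26). Arntl was at 47.8 CPM in control, 184 in scopolamine and 144 in tamsulosin, 3.85-fold (95% interval 3.52 to 4.23) higher in scopolamine, and Npas2 at 3.67 CPM in control, 45.5 in scopolamine and 45.5 in tamsulosin, 12.4-fold (95% interval 9.23 to 16.99) higher. Clock was at 237 CPM in control, 302 in scopolamine and 280.1 in tamsulosin and did not pass 1.5-fold.

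Of 5 tested repressors 2 were lower and none higher (median -0.43). Nr1d2, which encodes REV-ERB beta, was at 255 CPM in control, 69.9 in scopolamine and 77.4 in tamsulosin, lower by 3.65-fold (95% interval 3.35 to 3.98), and Per3 at 73.1 CPM in control, 25.9 in scopolamine and 27.2 in tamsulosin, lower by 2.83-fold (95% interval 2.45 to 3.27). Tef was at 264 CPM in control, 102 in scopolamine and 92.7 in tamsulosin, lower by 2.598-fold (95% interval 2.42 to 2.796). For each of these genes control stood apart and the scopolamine and tamsulosin libraries lay close together. None of the 9 tested clock genes passed 1.5-fold between tamsulosin and scopolamine. Macrophage-type nuclei of the same libraries held Arntl at 88.2, 163 and 96.1 CPM, Nr1d2 at 221, 23.9 and 18.3 CPM and Tef at 151, 76.6 and 41.2 CPM. The hour at which each gland was taken is not given, so time of day and treatment cannot be told apart.

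The promoters of 2 genes are shown because they hold the elements of these groups of genes. Each is the window of 250 bases before a gene start in RefSeq (GRCm38.p6), written 5′ to 3′ on the gene's strand, with capitals marking the E-box letters CACGTG or the C/EBP-ATF element TGATGCAA, which reads TTGCATCA on the other strand. Both strands were searched, and no match overlapped another. Tef has 2 starts in the table, at chr15:81802423-81802672 and chr15:81811164-81811413 on the plus strand, with the E-box beginning 127 and 138 bases before the start. Nupr1 lies on the minus strand at chr7:126625471-126625720, with an E-box 225 and a C/EBP-ATF element 110 bases before the start.
Tef, first start: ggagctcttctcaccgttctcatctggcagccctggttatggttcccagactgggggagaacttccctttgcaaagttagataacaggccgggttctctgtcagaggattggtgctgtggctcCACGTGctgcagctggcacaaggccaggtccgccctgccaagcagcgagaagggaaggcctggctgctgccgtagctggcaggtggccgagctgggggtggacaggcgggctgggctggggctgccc
Tef, second start: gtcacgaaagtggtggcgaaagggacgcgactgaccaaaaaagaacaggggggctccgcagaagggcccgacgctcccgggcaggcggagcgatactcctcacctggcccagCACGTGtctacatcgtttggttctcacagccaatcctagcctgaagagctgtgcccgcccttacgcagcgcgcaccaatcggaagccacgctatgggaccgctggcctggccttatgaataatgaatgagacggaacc
Nupr1: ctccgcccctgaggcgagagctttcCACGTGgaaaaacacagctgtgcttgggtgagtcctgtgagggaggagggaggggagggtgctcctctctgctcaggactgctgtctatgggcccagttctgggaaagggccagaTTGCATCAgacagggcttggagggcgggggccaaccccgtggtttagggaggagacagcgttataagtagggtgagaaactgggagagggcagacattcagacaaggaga

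Of 32851 promoters of this length in the table, 6.02% held CACGTG and 0.791% held TGATGCAA on either strand. Among genes with a match in the table, CACGTG was found in 4 of 8 clock repressors (Per1, Cry1, Ciart and Bhlhe41), in Tef among 4 PAR bZIP factors, in 0 of 5 clock activators and in Nupr1 among 21 amino acid response genes. TGATGCAA was found in 4 of those 21 (Chac1, Slc7a11, Vldlr and Nupr1). These counts are by gene, with a match at any of its starts, while the shares above are by promoter. The 21 genes have 27 starts, and Per1 and Vldlr did not match at every start, so counts and shares are not directly comparable. A match is a description of letters and says nothing of binding in these nuclei. Of the genes with an element that were tested, Tef and Nupr1 passed 1.5-fold between scopolamine and control, in opposite directions.

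Tear peptides and other secreted proteins were mostly higher in the scopolamine library. Of 16 tested genes of tear and secretory proteins 10 were higher and 2 lower, with a median relative log2 ratio of 1.33. The 24 listed genes summed to 23071, 57986 and 73507 CPM in members of control, scopolamine and tamsulosin. The same sums were 26569, 65758 and 109755 CPM in macrophage-type nuclei, above members in each library. Esp16, an exocrine gland secreting peptide of a family that includes tear pheromones, was at 64.9 CPM in control, 527 in scopolamine and 578 in tamsulosin, 8.13-fold (95% interval 7.56 to 8.74) higher in scopolamine. Obp1a, an odorant binding protein of the lipocalin family, was at 9395 CPM in control, 31861 in scopolamine and 39537 in tamsulosin, and Pip, prolactin-induced protein, at 1086 CPM in control, 2814 in scopolamine and 4123 in tamsulosin. Macrophage-type nuclei held Esp16 at 50.4, 316 and 444 CPM, Obp1a at 14390.0, 41025 and 66152 CPM, and Pip stood at 573, 2002 and 4285 CPM, and the part of free RNA in these differences was not tested. Esp, Obp and Scgb genes belong to families of close copies, and counts may be split between them.

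The other direction was taken by Lpo, which encodes the antibacterial lactoperoxidase, at 689 CPM in control, 181 in scopolamine and 347 in tamsulosin, and by Dmbt1 at 127 CPM in control, 54.7 in scopolamine and 299 in tamsulosin. Both were lowest in scopolamine and did not overlap the counting intervals of the other libraries. In macrophage-type nuclei Lpo was at 296, 57.5 and 124 CPM. Pigr was at 188 CPM in control, 549.96 in scopolamine and 520.0 in tamsulosin, 2.93-fold (95% interval 2.79 to 3.07) higher in scopolamine, with 75.6, 292 and 211 CPM in macrophage-type nuclei.

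Lipid genes held large differences in both directions, with 3 of 14 tested higher, 3 lower and a median of 0.09. Pnliprp1 was lower in scopolamine by 24.5-fold (95% interval 22.6 to 26.6) and lower again in tamsulosin. Its level in macrophage-type nuclei was 397, 23.9 and 32.04 CPM, below that of members in each library. Lipo1, a lipase gene of the same chromosome (chr19:33775498-33787459, minus strand), was at 12.3 CPM in control, 149.6 in scopolamine and 256 in tamsulosin. It was 12.1-fold (95% interval 10.3 to 14.3) higher in scopolamine than in control. Macrophage-type nuclei held it at 0, 57.5 and 114 CPM, where 3 counts in control would be 18.9 CPM. Phyh, the peroxisomal enzyme that starts the breakdown of phytanic acid, was at 4161 CPM in control, 1360.3 in scopolamine and 1493 in tamsulosin, lower by 3.06-fold (95% interval 2.9996 to 3.12), with 1386, 273 and 352 CPM in macrophage-type nuclei. Cyp2a5, a cytochrome P450 with close copies, was at 186 CPM in control, 23.97 in scopolamine and 94.4 in tamsulosin, lower by 7.78-fold (95% interval 6.76 to 8.98).

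Ptprt was the 1 gene of 17 tested among adhesion genes and tyrosine phosphatases that passed 1.5-fold, and was 6.597-fold (95% interval 6.14 to 7.09) higher in scopolamine. In the ERBB and FGF group 3 of 11 were higher and none lower (median 0.29). Nrg4, a ligand of ERBB4, was at 46.6 CPM in control, 184 in scopolamine and 126 in tamsulosin, Fgfr2, a receptor of fibroblast growth factors, at 120.2 CPM in control, 258 in scopolamine and 274 in tamsulosin, and Egfr at 203 CPM in control, 309 in scopolamine and 270.3 in tamsulosin. Among 15 tested acinar transcription factors 1 was higher (Etv1) and 1 lower (Foxc1), with a median of -0.04. These counts lay near the shares of all tested genes (6.6% higher and 4.27% lower) and are not read as a change of the group. Of the genes with the most extreme ratios outside these groups, Pdlim3, a protein of the actin cytoskeleton, was at 36.5 CPM in control, 189.7 in scopolamine and 183 in tamsulosin, and Insyn2a, named for inhibitory synapses, at 6.16 CPM in control, 36.8 in scopolamine and 40.9 in tamsulosin. Sorbs2os and Plet1os, which lie antisense to coding genes, were 4.52- and 4.25-fold higher, with the strand rule of the counting not given. On the low side were Taco1, a factor of mitochondrial translation (99.8 CPM in control, 18.3 in scopolamine and 10.9 in tamsulosin), Ttc7b, a subunit of a lipid kinase complex (138 CPM in control, 27.7 in scopolamine and 22.2 in tamsulosin), and Trim24, a transcriptional cofactor (607 CPM in control, 176 in scopolamine and 224 in tamsulosin).

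Genes of injury and stress are given beside the shares of all tested genes between scopolamine and control, 6.6% higher and 4.27% lower. Few of them were tested, and the counts are not read as a lack of response. Cell cycle genes were mostly below 20 CPM, with 1 of 25 tested and none past 1.5-fold. Among immediate early genes 1 of 2 tested was higher (Nr4a2, 82.3 CPM in control, 112 in scopolamine and 139 in tamsulosin), among NF-kB and acute phase genes none of 4, among interferon genes 1 of 5 (Ddx58), and among oxidative stress and heat shock genes 1 of 11 was lower (Hsph1, a heat shock protein, 33.4 CPM in control, 14.98 in scopolamine and 19.5 in tamsulosin). Nuclear retained RNA such as Malat1 (33225 CPM in control, 40177 in scopolamine and 31919 in tamsulosin) gave none of 5, and 1 of 10 tested mitochondrial genes was higher (mt-Nd4). An unnamed gene model that lies over ribosomal RNA sequence, Gm42418, was at 11209 CPM in control, 2127 in scopolamine and 2072 in tamsulosin, and was singled out after its values were seen.

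Several of these differences were present at each depth. Over the 4 depth ranges Pnliprp1 lay between 1463 and 1833 CPM in control and between 55.9 and 82.6 CPM in scopolamine. Phyh lay between 3868 and 4296 CPM in control and between 1320 and 1392 CPM in scopolamine, and Nr1d2 between 246 and 282 CPM and between 67.9 and 77.8 CPM. For Ptprt the ranges were 62.0 to 75.5 and 405 to 541 CPM, and for Arntl 45.4 to 55.9 and 163 to 246 CPM. None of these ranges overlapped between control and scopolamine. The ranges of Dmbt1 did overlap, at 69.6 to 256 and 47.3 to 85.2 CPM. Its level was 256 CPM in control and 57.0 in scopolamine at 8000 to 12000 UMIs, and 115 and 85.2 CPM above 50000 UMIs.

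Of the 54 named genes that passed 1.5-fold, 54 did so without members above 50000 UMIs and without the highest doublet scores, 51 when members were thinned to 8000 UMIs, 50 with nuclei weighted equally and 43 with every gene with a UMI setting the median. Those that did not pass in the last setting had relative log2 ratios of 0.42 to 0.57, among them Prlr, Adcy2, Slc4a4, Exoc4, Etv1, Ddx58, Nr4a2, Tfcp2l1, Krt8 and Dock2. Foxc1 reached -0.57 and Ddx58 0.58 with a minimum of 6000 UMIs and did not pass, nor did Nr4a2 (0.48) with one of 12000 UMIs.

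Between tamsulosin and scopolamine, members were higher in lactoferrin, in ion transport genes, in ribosomal protein genes and in mitochondrial RNA, and few genes were lower. Of all tested genes 3.78% were higher and 0.616% lower, and the counts of gene groups stand beside these shares. Ltf was 9.39-fold (95% interval 8.88 to 9.94) higher, at a level below that of macrophage-type nuclei as given above. Slc12a2, the sodium-potassium-chloride cotransporter that loads acinar cells with chloride, was at 76.8 CPM in control, 77.5 in scopolamine and 273 in tamsulosin, 3.52-fold (95% interval 3.24 to 3.83) higher in tamsulosin than in scopolamine. Among 12 tested genes of ion and water transport 5 were higher and none lower (median 0.28). Beside Slc12a2 they included Atp1b1 (3.81 CPM in control, 8.99 in scopolamine and 39.6 in tamsulosin) and Atp1b3 (42.1 CPM in control, 50.8 in scopolamine and 109.96 in tamsulosin), which encode beta subunits of the sodium pump, and Kcnn4. Macrophage-type nuclei of the tamsulosin library held Slc12a2 at 215 CPM and Atp1b1 at 27.5 CPM.

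Of 17 tested tear and secretory proteins 10 were higher in tamsulosin and none lower (median 0.76), beside 3.78% and 0.616% of all tested genes. In macrophage-type nuclei the sum of this group was also higher, at 65758 CPM in scopolamine and 109755 in tamsulosin. Dmbt1 was 5.46-fold (95% interval 4.96 to 6.02) higher and Lpo 1.92-fold (95% interval 1.81 to 2.04). Scgb1b20, a secretoglobin, was at 39.02 CPM in control, 185 in scopolamine and 703 in tamsulosin, against 63.004, 316 and 1139.8 CPM in macrophage-type nuclei. Bpifa2, a salivary and tear protein of the BPI fold, had 205 UMIs in control members and 0 in scopolamine members, where 3 counts would be 0.333 CPM. It had 2280 UMIs, or 233 CPM, in tamsulosin members. A single nucleus held 26.8% of its UMIs there, and macrophage-type nuclei held 453 CPM. Among lipid genes 7 of 16 were higher and 1 lower, with Cyp2a5 3.94-fold (95% interval 3.39 to 4.59) higher and Lipo1 1.71-fold. Pnliprp1 was the lower one, by 1.71-fold (95% interval 1.51 to 1.95).

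The size of several of these differences changed with depth. Ltf stood at 121 CPM in scopolamine and 2454 in tamsulosin at 8000 to 12000 UMIs, and at 163 and 271 CPM above 50000 UMIs. Slc12a2 stood at 48.2 and 464 CPM in the shallowest range and at 124 and 176 CPM in the deepest, and Dmbt1 at 57.0 and 544 CPM and at 85.2 and 97.8 CPM. All 3 thus differed most between the libraries in members nearest the limit. With a minimum of 12000 UMIs 29 of 38 named genes kept their call, and the relative log2 ratio was 2.49 for Ltf, 1.01 for Slc12a2 and 1.70 for Dmbt1, while that of Pnliprp1 was -0.58 and did not pass.

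All 11 tested mitochondrially encoded genes were higher in tamsulosin (median 1.42), with mt-Atp6, a subunit of ATP synthase, at 123 CPM in control, 111 in scopolamine and 593 in tamsulosin. The 13 listed genes summed to 1038, 1191 and 3518.5 CPM in members and to 2671, 2284 and 7146 CPM in macrophage-type nuclei. Members did not exceed that reference in any library, and the part of free RNA was not tested. Of 73 tested genes for ribosomal proteins 58 were higher and none lower (median 0.81), and their sum of 2287 CPM in scopolamine and 4054 in tamsulosin stood beside 3969.8 and 10391 CPM in macrophage-type nuclei. Nuclei of ordinary depth stood at a median mitochondrial share of 0.106%, 0.139% and 0.515%, and members at 0.0439%, 0.0796% and 0.223%, so the tamsulosin library was higher at both depths. Of all tested genes 3.78% were higher and 0.616% lower. The ER group had 3 of 27 higher and none lower (median 0.23). These were the disulfide isomerases Pdia4 and Pdia6 and the cochaperone Dnajb9 (27.7 CPM in control, 28.6 in scopolamine and 43.3 in tamsulosin), each of which passed 1.5-fold by little and did not pass when members were thinned to 8000 UMIs (0.43, 0.47 and 0.53). The same shares stand beside the small counts of the other groups, which are not read as a change of the group. Receptors gave 0 of 6 (median -0.19), exocytosis 1 of 16 higher, and the amino acid response 1 of 7 lower. These were Rims2, 3.299-fold (95% interval 2.83 to 3.85) higher, and Nupr1, 1.69-fold lower. The ERBB and FGF group had 1 of 11 higher, Nrg2 at 68.9 CPM in control, 75.02 in scopolamine and 171 in tamsulosin, and oxidative stress and heat shock 1 of 10, Hspa8 at 15.4 CPM in control, 21.1 in scopolamine and 33.1 in tamsulosin.

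Among the genes of highest ratio outside these groups were F5 (22.8 CPM in control, 31.3 in scopolamine and 155 in tamsulosin), Sv2b, a vesicle glycoprotein (17.5 CPM in control, 10.8 in scopolamine and 51.7 in tamsulosin), and Acsm1 (68.8 CPM in control, 62.3 in scopolamine and 209.99 in tamsulosin). The lowest were Rgs6, a regulator of G protein signalling (19.95 CPM in control, 37.1 in scopolamine and 11.98 in tamsulosin), Adamtsl1, an extracellular matrix protein (56.4 CPM in control, 116 in scopolamine and 47.1 in tamsulosin), Ntrk3, the receptor of neurotrophin 3 (2.36-fold lower), Rbms3 (2.27-fold), Fhod3, a formin (2.32-fold), and Kirrel3, an adhesion protein (2.29-fold). Of these, Adamtsl1 was uneven in the scopolamine library, where 464 of 565 nuclei had no UMI of it at 8000 UMIs and the highest had 42. Without the highest doublet scores its relative log2 ratio was -1.84 in place of -1.14.

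In the tamsulosin library against control, 9.66% of all tested genes were higher and 5.61% lower. Beside these shares, 16 of 17 tested tear and secretory proteins were higher and 1 lower, and 7 of 12 amino acid response genes were lower and none higher. Of the clock genes, 2 of 4 tested activators were higher and 2 of 4 tested repressors lower. Levels in all 3 libraries stand side by side above, with the sums of tear and secretory proteins in macrophage-type nuclei. Slc12a2, Atp1b1 and Ltf were high in tamsulosin alone, Lpo, Rims2 and Dmbt1 were lowest in scopolamine, and Pnliprp1, Phyh, Asns, Aldh1l2, Nr1d2 and Tef were high in control alone.

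Several of these differences were also seen in single nuclei. Each member was thinned to 8000 UMIs. Pnliprp1 had a median of 8 UMIs in control (quartiles 3 and 18.75, highest 99) and of 0 in scopolamine (highest 15) and tamsulosin (highest 27), and a UMI of it was seen in 94.3%, 30.1% and 16.1% of members. Phyh had medians of 32, 10 and 10 UMIs, and Nr1d2 of 2, 0 and 0. Ptprt had medians of 0, 3 and 2 UMIs and was seen in 31.6%, 87.3% and 75.7% of members. The distributions of these genes overlapped between libraries in their tails, most of all for Nr1d2, whose highest nucleus held 12 UMIs in control and 4 in each of the others.

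Lipo1 and Esp16 were uneven among nuclei. Lipo1 was seen in 4.57%, 30.6% and 36.3% of members with highest values of 12, 50 and 55 UMIs, so most members of each library had none. Esp16 had medians of 0, 2 and 2 UMIs and highest values of 33, 60 and 39. Ltf had a median of 4 UMIs in tamsulosin and 364 in its highest nucleus, against medians of 0 and highest values of 31 and 23 in control and scopolamine.

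To set these shares against free RNA, all nuclei were thinned to 2000 UMIs, which left 38, 42 and 52 macrophage-type nuclei and excluded 3, 35 and 19 shallower ones. Median depths before thinning were 13346.5, 12026 and 11664 UMIs in members and 3093, 3193 and 2873.5 in macrophage-type nuclei. Chrm3, a term of the rule, was then seen in 99.7%, 100% and 99.8% of members and in 97.4%, 73.8% and 53.8% of macrophage-type nuclei. Ptprt was seen in 11.2%, 51.3% and 41.0% of members and in 5.26%, 16.7% and 1.92% of macrophage-type nuclei. Nuclei of ordinary depth held it in 11.6%, 40.1% and 27.4%, and Pnliprp1 in 71.8%, 9.42% and 3.10%. Pnliprp1 was seen in 74.9%, 11.3% and 5.46% of members and in 47.4%, 9.52% and 0% of macrophage-type nuclei. For 0 of 52 the exact interval reaches 6.85%, above the members' 5.46%. The members' share of Pnliprp1 in scopolamine was thus close to that reference. Esp16 reached 7.48%, 45.8% and 48.7% of members, against 2 of 38, 18 of 42 and 26 of 52 macrophage-type nuclei, which is close to that reference, while its CPM in members lay above it in each library. Ltf was seen in 63.5% of members and 94.2% of macrophage-type nuclei of tamsulosin, so no difference is read from this share.

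**Figure D4:**
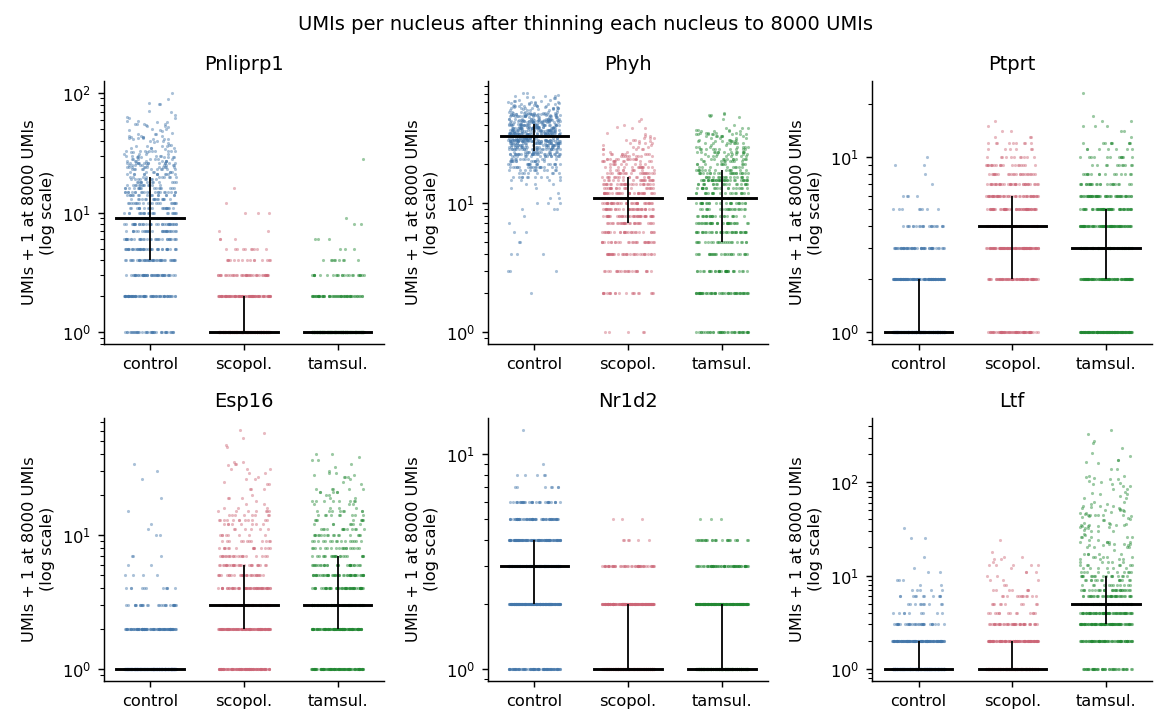
UMIs plus 1 (log axis) per member nucleus thinned to 8000 UMIs, for Pnliprp1, Phyh, Ptprt, Esp16, Nr1d2 and Ltf in each library. Each point is a nucleus, the bar is the median and the vertical line spans the quartiles. Pnliprp1 has a median of 8 UMIs in control and 0 in the other libraries, and Ltf one of 4 in tamsulosin and 0 in the others.

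The genes that varied most among members at 8000 UMIs, by the variance divided by the mean, differed between libraries. In control they were led by Chst9, a sulfotransferase (variance 29.97 times the mean, no UMI in 547 of 722 nuclei), Malat1, Dmbt1, Obp1a and Pnliprp1. In scopolamine they were led by Obp1a (114 times), Malat1, Obp1b, Esp15 and Acaca, whose place came from 1 nucleus with 122 UMIs where the median was 1. In tamsulosin they were led by Obp1a (131 times), Bpifa2, Smr3a, Ltf and Amy1. Bpifa2 (highest nucleus 342 UMIs, median 0), Smr3a (298 and 0) and Amy1 (170 and 0), all genes known from salivary secretion, had no UMI in 355, 394 and 400 of 641 nuclei and very high values in a few.

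Chst9 led to a split among the members that the rule had not used. Meis2 (a homeobox factor), Chst9, Fut9 and Acsm1, a set put together after the data were seen, made up at least 0.1% of UMIs in 70 of 722 members in control (9.70%, interval 7.64 to 12.1), 72 of 565 in scopolamine (12.7%, 10.1 to 15.8) and 173 of 641 in tamsulosin (27.0%, 23.6 to 30.6). The split is a limit on a range, with 26, 23 and 28 members between 0.08% and 0.12%. In nuclei of ordinary depth the shares were 16.4%, 20.9% and 58.5%. With every nucleus thinned to 2000 UMIs they were 13.02%, 14.9% and 29.5% in members and 23.5%, 24.7% and 60.3% in nuclei of ordinary depth. Members of the tamsulosin library thus held a larger share than those of the other libraries and a smaller one than shallower nuclei of their own.

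Members high in this set had more cotransporter and less tear peptide RNA in each library. Slc12a2 stood at 509 CPM in them and 27.8 in the other members of control, at 305 and 33.9 in scopolamine, and at 825 and 67.8 in tamsulosin. Higher as well were Car12, a carbonic anhydrase (15.05-, 11.5- and 17.2-fold), Trpm6, a magnesium channel (16.95-, 15.4- and 23.98-fold), Dmbt1 (13.4-, 10.8- and 9.94-fold), Nrg2 (10.3-, 7.12- and 17.8-fold) and Ltf (5.76-, 6.12- and 9.29-fold). Kit, a receptor tyrosine kinase, was 4.53-, 3.54- and 7.14-fold higher, and Tfcp2l1, a transcription factor known from duct cells, 9.27-, 4.698- and 9.61-fold.

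Esp16 was 2.07-, 1.98- and 2.16-fold lower in them, Esp15 1.72-, 1.81- and 1.91-fold, Pnliprp1 1.66-, 1.57- and 2.68-fold, and Phyh 1.33-, 1.34- and 2.13-fold. Chrm3 was nearly equal in both (1.03-, 1.07- and 1.09-fold higher). Arntl was 1.061-, 1.07- and 1.37-fold lower. These are descriptions, since the genes of 1 nucleus were measured together and nuclei of 1 library are not replicates.

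**Figure D5:**
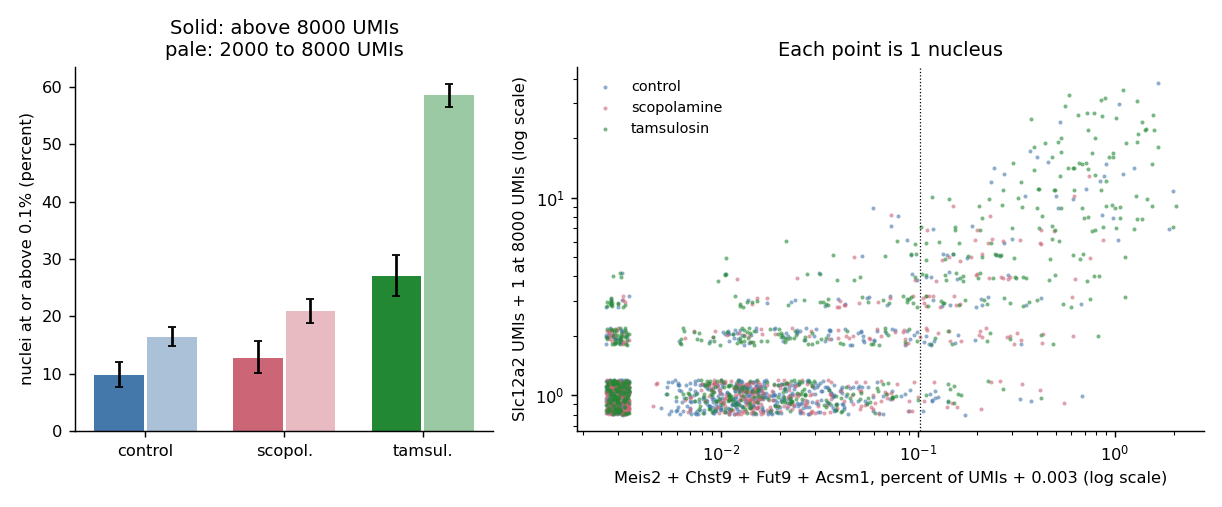
Percent of nuclei with at least 0.1% of UMIs from Meis2, Chst9, Fut9 and Acsm1 (left, solid for members and pale for nuclei of 2000 to 8000 UMIs, with exact 95% intervals), and Slc12a2 UMIs at 8000 UMIs against the percent of the set in single members (right). Members reach 9.70%, 12.7% and 27.0%, and Slc12a2 is mostly at 0 below the limit.

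The part of the tamsulosin library's differences that went with these nuclei was measured by leaving them out of every library, which left 652, 493 and 468 members. Genes higher in tamsulosin than in scopolamine then numbered 141 in place of 221. The relative log2 ratio of Slc12a2 was 0.99 in place of 1.82, that of Acsm1 0.78 in place of 1.74, and that of F5 1.48 in place of 2.21. Atp1b3 (0.57) no longer passed 1.5-fold, nor did Pnliprp1 (-0.46). Nrg2 was at -0.17 in place of 1.2. Ltf (2.42 in place of 3.26), Dmbt1 (1.90 in place of 2.41), Rims2 (1.72) and mt-Atp6 (2.08) stayed past it. Between scopolamine and control, 51 of 53 named genes kept their call without these nuclei, among them Pnliprp1 (-4.31), Ptprt (2.80), Nr1d2 (-1.65), Asns (-1.89) and Phyh (-1.40).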

How the data were processed

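The deposited matrices hold raw UMI counts of 32285 genes for each barcode of 3 libraries. The file headers and the submitters' processing notes name Cell Ranger 5.0.0 and the build mm10. The counting of intronic reads, the strand rule and filters before deposit are not given in the sources used here. Total UMIs per library were 33500727 in control, 35237256 in scopolamine and 57969348 in tamsulosin.

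The membership terms were applied to each deposited count matrix with Python 3.11.15, numpy 2.4.6, scipy 1.17.1 and pandas 2.3.3. Scrublet in scanpy 1.11.5 (expected rate 0.06) marked no barcode, so for 1 alternative the highest scores were removed at 0.8% per 1000 barcodes. UMIs were summed over nuclei and given as CPM, with exact Poisson intervals, and ratios carry exact conditional binomial intervals. Shares carry exact Clopper-Pearson intervals. Log2 ratios had 5 CPM added to each level and were taken over genes with a mean of 20 CPM or more, less their median. No test between groups was run with 1 library each. Nuclei were thinned to 8000 or 2000 UMIs where single nuclei were compared. The comparison was checked on simulated counts. Promoters came from RefSeq and gene positions from GENCODE on GRCm38. Macrophage-type nuclei had at least 1000 UMIs and Ptprb, Lama2, Skap1, Trp63 and Myh11 together at or below 0.1%.

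Named genes were the 10 highest and 10 lowest ratios for scopolamine against control, the 6 highest and 6 lowest for tamsulosin against scopolamine and the 8 steadiest each way for depth. Those chosen between libraries needed at least 30 UMIs and a level at or above macrophage-type nuclei in the higher library. Those chosen for depth had neither limit. Unnamed models, mitochondrial, ribosomal and haemoglobin genes and the rule's genes were left out of the choices between libraries and for depth. Up to 4 genes with the largest ratios in each of 35 lists and the 3 marks were added, without the limits on UMIs and macrophage-type level. Other genes are named for their role in a list, and some list members that were counted are not reported here by name. The members and lists were chosen with earlier results of these data known. The alternatives without members above 50000 UMIs and without members high in Meis2, Chst9, Fut9 and Acsm1 were added after the data were seen. In comparisons by depth, the second of these also left out the nuclei of ordinary depth that were high in the set.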

Additional observations from a re-analysis of the deposited data

How the results depend on the processing

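Limits of these data are 1 library per group, unknown animals, free RNA that could not be removed, and doublets that the caller did not find. No paired analysis was possible because each group holds 1 library and no comparison has a test. Members numbered 984, 868 and 1126 in control, scopolamine and tamsulosin with a minimum of 6000 UMIs, 426, 283 and 302 with one of 12000 UMIs, 602, 479 and 481 with Chrm3 at 0.3%, and 652, 493 and 468 without those high in Meis2, Chst9, Fut9 and Acsm1. In tamsulosin they numbered 712 with Chrm3 at 0.1% and 543 without the highest doublet scores.

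With fewer genes tested, at a mean of at least 100 CPM, higher and lower genes numbered 106 and 105 for scopolamine against control, 50 and 4 for tamsulosin against scopolamine, and 139 and 128 for tamsulosin against control. With every gene that had a UMI they numbered 798 and 797, 372 and 132, and 1097 and 1235. Without the Meis2 set 141 genes were higher in tamsulosin than in scopolamine. Against nuclei of ordinary depth at 100 CPM, 39 genes were lower in control, 0 higher and 38 lower in scopolamine, and 74 higher and 182 lower in tamsulosin. Without nuclei high in the Meis2 set at either depth, 100, 73 and 184 genes were lower, and 4 higher in tamsulosin. With reference nuclei of 4000 to 8000 UMIs 1 gene was higher and 95 lower in control, and 4 higher and 75 lower in scopolamine. In control, 1 gene was higher with nuclei weighted equally, 3 with a pseudocount of 1 CPM, 1 without the 50 most abundant genes and 23 when thinned to 2000 UMIs. In scopolamine, 4 were higher with that pseudocount, 5 without the 50 genes, 1 without members above 50000 UMIs and 35 when thinned, with 263 lower. Causes were not tested except where fewer genes or nuclei entered.

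Single genes that changed direction did so mainly without the Meis2 set. For tamsulosin against scopolamine the relative log2 ratios were then -0.447 for Mylk, -0.168 for Nrg2 and -0.151 for Tfcp2l1, and for tamsulosin against control -0.153 for Kit. Mylk was also at -0.0299 with a minimum of 12000 UMIs. For deep against ordinary nuclei they were 0.0885 for Fut9, 0.0638 for Mylk, 0.402 for Nrg2 and 0.0329 for Tfcp2l1 in scopolamine, and 0.00444 for Acsl1, -0.0516 for Dagla, -0.0311 for Etv1 and -0.0141 for Lmx1b in tamsulosin. No other named gene that passed 1.5-fold changed direction under the alternatives run. For these reversals the cause was not tested.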
